A study of Danio rerio with 24 samples.

Results

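Solute carriers are the membrane proteins that move nutrients, metals, ions and metabolites into and out of cells, by exchange, by cotransport with sodium or protons, or down a gradient. In liver they take up amino acids, fatty acids, fructose and organic ions from blood, export iron and lactate, and load nucleotide sugars into the secretory pathway. In mammals, mercury bound to thiols such as cysteine crosses membranes on amino acid and organic anion carriers of this superfamily. The solute carrier genes followed here are those whose array probe carries a symbol that begins with slc, leaving out the mitochondrial slc25 genes, slc37a4a and slc22a23. Of 104 probes with such a symbol, 14 were left out, and the other 90 stand for 83 genes among the 5355 named genes tested. Where 7 genes had more than 1 probe, the brightest was used. By the substrate of their family or gene in mammals, 21 of the 83 genes were grouped with amino acids and peptides and 5 with sugars. Another 12 were grouped with metals or heme, 16 with organic ions, 13 with inorganic ions, 7 with nucleosides or nucleotide sugars and 5 with vitamins or lipids. The last 4 were unclassified: slc14a2, slc49a4, slc66a3 and slc7a6os, which is named for its neighbour and is not a transporter.

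The RNA came from livers of adult zebrafish, in 8 groups of 3 arrays. The exposed groups had HgCl2 in their water at 200 μg/L, and were sampled after 8, 24, 48 and 96 h. The control groups were sampled at the same times without HgCl2. Each array carried liver RNA of 4 pooled fish in Cy5 and, in Cy3, the same reference RNA, pooled from livers of male and female wild-type fish. The labels call the 3 arrays of a group biological replicates, give no sex for the sampled fish, and name no dye swap. A level below is the log2 ratio of liver sample to reference (log2 Cy5/Cy3) once each array had been background-corrected and loess-normalized. A difference is exposed minus time-matched control on that log2 scale, given ± its standard error with n = 3 arrays a group, and a call is a limma adjusted p (Benjamini-Hochberg over 16340 probes) under 0.05. In a whole organ, fewer cells of a type and less RNA per cell cannot be told apart. The ratios rank a gene between groups, not against another gene.

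The median Cy5 signal of an array was between 253 and 902, and 65.7% to 94.9% of spots stood more than 2 background standard deviations above background in Cy5. Of the 83 genes, 59 to 82 were above background on a given array, 39 on all 24 arrays and 76 on at least 12, and none was saturated. Log ratios of arrays in 1 group correlated at r between 0.292 and 0.713. All 7 measured hepatocyte markers were above background on every array, and 0, 2, 1 and 4 of them were called higher at 8, 24, 48 and 96 h (median difference 0.66 at 96 h). The full list of hepatocyte markers includes fga and agt, which the paper names as acute phase genes. A rise in this list is therefore not read as more hepatocytes. Markers of other cell types moved as well: at 96 h, 5 of 10 leukocyte genes were called higher (array means of the list 0.94 to 1.08 in exposed against 0.06 to 0.27 in control livers) and 4 of 5 exocrine pancreas genes lower (-1.81 to -1.12 against 0.33 to 0.60). At 24 h, 2 of 8 red blood cell genes, the globins hbaa1 and hbba1, were called lower (-0.18 to 0.11 against 0.55 to 0.75) and 2 of 8 ovary genes higher (0.30 to 0.94 against -1.22 to -0.79). On the mean of the 4 times, called were 6 of 8 ovary genes higher (median difference 1.31, with 1.52 and 1.15 at 48 and 96 h and no call there), 5 of 8 red blood cell genes lower (median -0.30), 5 of 5 exocrine pancreas genes lower (median -0.74), 4 of 7 hepatocyte genes higher (median 0.34), and 5 of 10 leukocyte genes higher with 1 lower (median 0.37). At 48 and at 96 h, 2 of 8 red blood cell genes were called lower too. At 24 and at 48 h, 2 of 5 exocrine pancreas genes were called lower. Of leukocyte genes, 1 was lower at 24 h and 1 higher at 48 h. At 24 h, 1 of 4 bile duct and 1 of 3 kidney genes were higher. On the mean, 2 bile duct genes were higher and 1 lower, and 1 kidney gene was higher and 1 lower. Over all probes, 0.973%, 10.8%, 8.65% and 12.9% were called in either direction at 8, 24, 48 and 96 h, and 31.5% on the mean. Lists this short were not tested against these shares. They were chosen with earlier results of these data known, and their part in the transporter results was not tested. The reference channel, which should hold the same RNA everywhere, also differed between exposed and control arrays. In it, 17 of the 83 genes passed at 8 h, 1 at 24 h, 0 at 48 h and 14 at 96 h, against 12.8%, 1.94%, 0.6% and 13.6% of all probes; on the mean of the 4 times, 17 passed against 16.5%. Whether that came from the treatment or from a set of arrays cannot be told apart, so the Cy5 and Cy3 parts of a difference are given where they bear on it.

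Of the 83 genes, 18 (21.7%) were called at 1 or more times, the same share as among all probes (21.7%). At 8 h, 1 gene was called higher and 0 lower, against 0.624% and 0.349% of all probes (0.973% in either direction). At 24 h, 9 were higher and 5 lower, together 16.9%, against 6.61% and 4.23% of all probes (10.8%). At 48 h, 5 were higher and 1 lower against 5.29% and 3.37% (8.65%), and at 96 h, 2 were higher and 2 lower against 7.48% and 5.42% (12.9%). The order of the times was not tested and varied with the processing: 24 h against 96 h was 14 against 4 calls here, 11 against 18 on Cy5 alone, 4 against 5 with the authors' value table, and 9 against 9 on the 6 arrays of each time. For these alternatives the share of all probes is not given here, so their counts are not set against the array-wide rate. No gene was called in both directions, 12 were called at 1 time, 5 at 2, 1 at 3 and 0 at all 4. On the mean of the 4 times, 17 genes were higher and 11 lower (33.7% in all) against 17.7% and 13.8% of probes (31.5%). The median difference of the 83 genes was 0.08, 0.02, 0.05 and 0.04 at 8, 24, 48 and 96 h, against 0.01, 0.00, 0.01 and 0.01 over all probes.

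Groups of arrays did not overlap for 9 genes on the higher and 6 on the lower side at 8 h (9.44% and 8.49% of all probes), 12 and 8 at 24 h (14.7% and 13.1%), 11 and 11 at 48 h (15.9% and 13.8%), and 18 and 11 at 96 h (19.4% and 17.1%). In the F test over the 8 groups, 15 genes (18.1%) passed, against 18.6% of probes. No transporter gene passed limma's test of a change in the effect from 8 h to 24, 48 or 96 h. In that adjusted test of the log ratio, 0%, 0.0918% and 0.991% of probes passed. At an unadjusted p under 0.05 there were 7, 9 and 9 genes, and on Cy5 alone 0, 2 and 21 genes passed. None passed between the controls of 8 h and those of 24, 48 or 96 h in limma (0.00612%, 0% and 0.214% of probes; 8, 3 and 8 genes at an unadjusted p under 0.05; 17 genes on Cy5 alone at 1 or more of these times), so a time at which a gene was called is not shown to differ from one at which it was not. The share of all probes is not given here for the unadjusted and the Cy5 counts, so these are not set against the array-wide rate. Single arrays moved the counts of calls. The 14 calls at 24 h became 6 without control array 1 of that time, 9 and 8 without control arrays 2 and 3, and 8 and 7 without exposed arrays 2 and 3. The 6 at 48 h became 1 and 2 without control arrays 1 and 2 and 2 without exposed array 1. The 1 call at 8 h became 2 without control array 1 or exposed array 3 and 0 without exposed array 1. The 4 at 96 h became 2 without control or exposed array 3 of that time and 7 without control or exposed array 3 of 8 h, which enter through the shared spread.

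**Figure D1:**
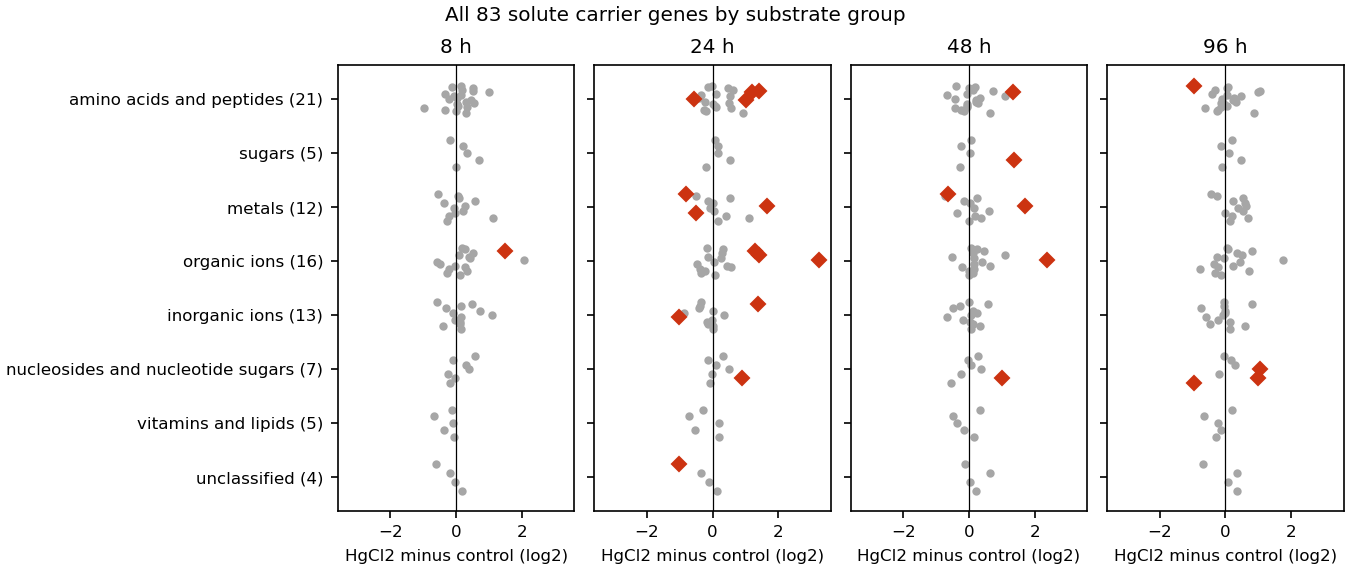
Difference between exposed and control livers (log2, x axis) of each of the 83 solute carrier genes, in rows by substrate group with the number of genes, at 4 times. Red diamonds are genes called in limma and grey circles the others; most genes lie near 0 and the largest difference is that of an organic ion carrier at 24 h, at 3.25.

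Among carriers of amino acids and peptides, 3 genes rose and 1 fell at 24 h, 1 rose at 48 h and 1 fell at 96 h, of 21 measured. The higher calls were 14.3% of the group at 24 h and 4.76% at 48 h, against 6.61% and 5.29% of all probes; the lower calls were 4.76% at 24 and at 96 h against 4.23% and 5.42%. The median difference at 24 h was 0.12. Those that rose were slc38a2 and slc38a4, which bring neutral amino acids into cells with sodium, and slc3a2b, one of a pair of zebrafish genes for the heavy chain that holds the amino acid exchangers of the slc7 family in the membrane. Its pair, slc3a2a, fell at the same time.

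The level of slc38a4, in mammals an amino acid carrier largely of liver, was -1.85, -2.18 and -1.77 on the 3 control arrays of 24 h and -0.28, -0.92 and -0.98 on the exposed ones. At 48 h it was -2.56, -2.79 and -1.73 against -1.02, -1.06 and -1.01. All exposed arrays stood above all controls at both times, and the log ratio was negative on all of these arrays. Since no dye swap is named, that sign is not read as less transcript in the sample than in the reference. The differences were 1.20 ± 0.34 (2.3-fold, adjusted p = 0.0251) and 1.33 ± 0.34 (2.52-fold, adjusted p = 0.0184), with 1.01 ± 0.34 at 8 h (adjusted p = 0.177) and 0.98 ± 0.34 at 96 h (adjusted p = 0.0611), and 1.13 ± 0.17 on the mean of the 4 times (adjusted p = 3.68e-05). On Cy5 alone the gene passed at both times, at 1.09 and 1.57. The call at 24 h was lost without control array 1 or 2 or exposed array 1 (adjusted p = 0.0573, 0.101 and 0.0839), that at 48 h without the same arrays of its time (adjusted p = 0.0723, 0.1 and 0.0614), and both with the authors' value table (adjusted p = 0.105 and 0.0907).

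For slc38a2, which amino acid shortage induces in mammals, the level at 24 h was -1.66, -0.95 and -1.27 on control and -0.15, -0.10 and 0.59 on exposed arrays. The exposed arrays were all higher, although only 1 control and 2 exposed arrays were above background. The difference was 1.41 ± 0.39 (adjusted p = 0.0224), with 1.46 in Cy5 and 0.05 in the reference, and at 96 h it was 1.04 ± 0.39 (adjusted p = 0.0781). The mean over the 4 times was 0.93 ± 0.19 (adjusted p = 0.00095). The call at 24 h was lost without control array 1 or 3 or exposed array 3 (adjusted p = 0.0938, 0.0551 and 0.11), and with plain background subtraction or the authors' value table (adjusted p = 0.0587 and 0.0563).

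The paired heavy chain genes moved apart at 24 h. The level of slc3a2b was -0.02, -0.21 and -0.80 in controls and 0.19, 1.02 and 0.84 in exposed livers, while that of slc3a2a was 0.39, 0.05 and 0.29 against -0.19, -0.72 and -0.05. The 3 exposed arrays lay above all controls for slc3a2b and below all controls for slc3a2a. The differences were 1.03 ± 0.25 (adjusted p = 0.0115) and -0.57 ± 0.18 (adjusted p = 0.0421), and neither passed on Cy5 alone (0.60 and -0.37). At 8, 48 and 96 h slc3a2b stood at 0.45, 0.22 and 0.23 and slc3a2a at -0.22, -0.44 and -0.10, all without a call. The slc3a2b call was lost without control array 3 or exposed array 2 or 3 of 24 h (adjusted p = 0.07, 0.0682 and 0.052). The slc3a2a call was lost without any 1 of 6 arrays, most without exposed array 2 of 24 h (-0.36, adjusted p = 0.232), then control arrays 1 and 3 of 24 h (adjusted p = 0.147 and 0.107), control array 1 of 48 h and control arrays 2 and 3 of 96 h (adjusted p = 0.051, 0.0511 and 0.0526). Without background correction neither was called (0.38 and -0.30, adjusted p = 0.108 and 0.118), nor with the authors' value table (adjusted p = 0.0808 and 0.164) or the 6 arrays of 24 h alone (adjusted p = 0.084 and 0.19), and slc3a2a was not with median centring (adjusted p = 0.0607).

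The one member of this group that fell at 96 h was slc15a1b, a proton-coupled carrier of small peptides best known from the intestine. Its level was 0.44, 0.11 and 0.06 on control and -1.02, -0.51 and -0.76 on exposed arrays, without overlap, a difference of -0.97 ± 0.24 (adjusted p = 0.0125). Of this, -0.33 was in Cy5 (adjusted p = 0.433) and the reference channel was higher by 0.64 (adjusted p = 0.164). At 8, 24 and 48 h the difference was 0.16, -0.01 and -0.39. The call was lost without control or exposed array 1 of 96 h (adjusted p = 0.06 and 0.0518). Of 13 listed intestinal markers 3 were measured, and none was called at any time. Their median difference was -0.48 at 48 h and -0.12 at 96 h, and their part in the slc15a1b value was not tested. Called only on the mean of the 4 times were slc7a3a, a cationic amino acid carrier (0.69 ± 0.19, adjusted p = 0.00792), and slc6a1a, a GABA carrier (-0.27 ± 0.10, adjusted p = 0.0382, lost without any 1 of 13 arrays, at up to 0.0789). The slc6a1a value was -0.11 with the authors' value table (adjusted p = 0.484), and its call was also lost on Cy5 alone (adjusted p = 0.121) and with median centring (adjusted p = 0.0846). The brightest uncalled member, the peptide carrier slc15a2, stood between -0.13 and 0.18 at the 4 times.

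**Figure D2:**
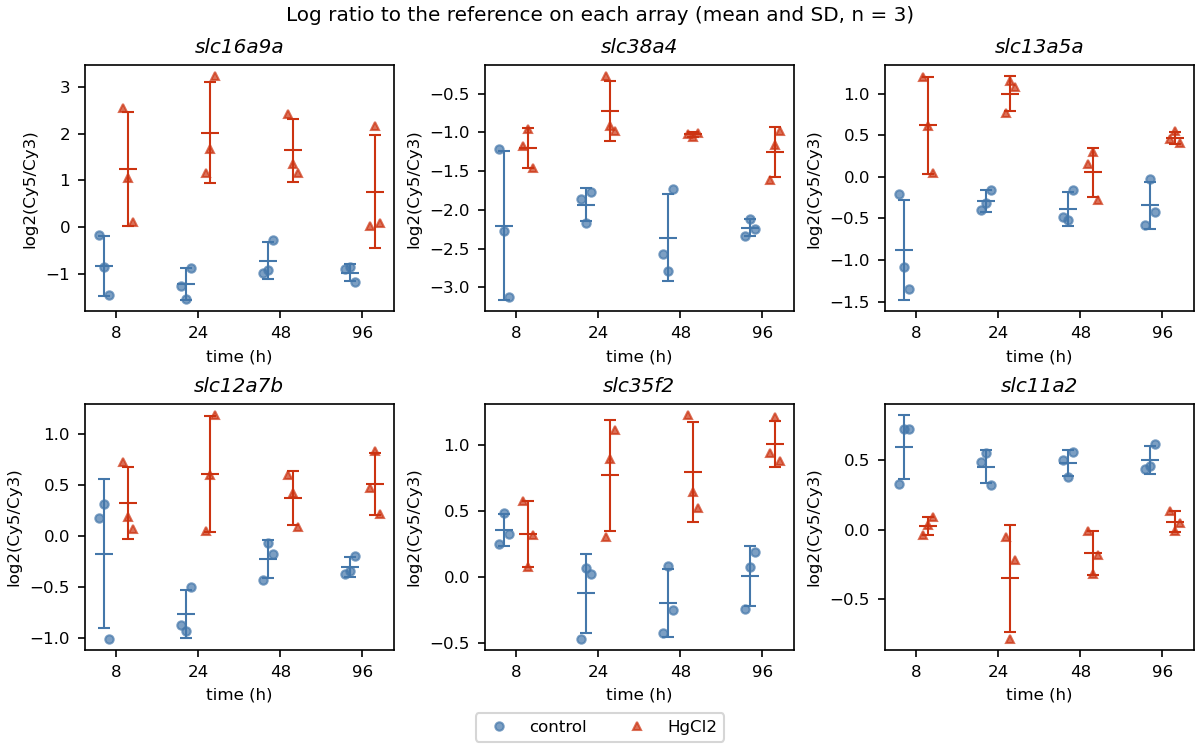
Level (log2 Cy5/Cy3, y axis) of 6 solute carrier genes on each array by time (h, x axis), blue circles for control and red triangles for exposed livers, with bars for the mean and SD of 3 arrays. At 24 h the exposed arrays of all 6 genes lie outside the range of their controls, above it for 5 genes and below it for slc11a2; the controls of slc35f2 at 24 and 48 h were not above background.

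Of 16 carriers of organic ions, a group made by gene family that also holds the sulfate carrier slc13a1, 1, 3, 1 and 0 were called higher at 8, 24, 48 and 96 h and 0 lower at any time. All probes were called higher in 0.624%, 6.61%, 5.29% and 7.48% and lower in 0.349%, 4.23%, 3.37% and 5.42%. On the mean of the 4 times 5 rose (31.2%, against 17.7% of all probes), 1 of them slc13a1. The median difference was 0.23, 0.17, 0.16 and 0.06 at 8, 24, 48 and 96 h. Of the genes that rose at a time, slc16a3b carries lactate and slc13a5a citrate. The other, slc16a9a, is placed with the monocarboxylate carriers by family only.

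The largest difference of all 83 genes was that of slc16a9a, a monocarboxylate carrier family member tied to carnitine transport in human. At 24 h its level was -1.25, -1.55 and -0.87 on control and 1.16, 1.68 and 3.23 on exposed arrays, and at 48 h it was -0.98, -0.93 and -0.27 against 2.43, 1.35 and 1.17. At 8 h the exposed arrays read 2.55, 1.06 and 0.12 against -0.18, -0.85 and -1.46, and at 96 h 0.03, 2.16 and 0.10 against -0.90, -0.85 and -1.19. Exposed and control arrays did not overlap at any of the 4 times, and the exposed arrays differed widely among themselves. The differences were 3.25 ± 0.59 at 24 h (9.49-fold, adjusted p = 0.0015) and 2.37 ± 0.59 at 48 h (5.18-fold, adjusted p = 0.017). At 8 and 96 h they were 2.07 ± 0.59 (adjusted p = 0.102) and 1.74 ± 0.59 (adjusted p = 0.0576). The mean over the times, 2.36 ± 0.30, had the smallest adjusted p of the 83 genes, 5.07e-06. Nearly all of it lay in Cy5: at 8, 24, 48 and 96 h the Cy5 difference was 1.93, 3.29, 2.63 and 1.69 and passed each time, and the reference differed by -0.14, 0.04, 0.26 and -0.05. The call at 24 h held without any 1 array, and that at 48 h was lost without control array 1 or 2 or exposed array 1 (adjusted p = 0.0641, 0.0671 and 0.0969).

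The citrate carrier slc13a5a, which in mammals brings citrate from blood into liver cells, was the only transporter called at 8 h. Its level then was -0.20, -1.08 and -1.36 on control and 1.20, 0.61 and 0.04 on exposed arrays, and at 24 h it was -0.40, -0.32 and -0.15 against 0.77, 1.15 and 1.08. The groups did not overlap at either time. The differences were 1.5 ± 0.27 (adjusted p = 0.00925) and 1.29 ± 0.27 (adjusted p = 0.0041), followed by 0.44 at 48 h and 0.81 at 96 h (adjusted p = 0.335 and 0.0514). Most of the difference at 8 h, however, lay in the reference channel, at -1.33 (adjusted p = 0.0321), with 0.17 in Cy5 (adjusted p = 0.844). At 24 h the parts were -0.14 and 1.15 (Cy5 alone, adjusted p = 0.154). The gene was also called on the mean of the 4 times, and that call was lost on Cy5 alone (0.42, adjusted p = 0.178). The 8 h call was lost without control array 3 or exposed array 1 (adjusted p = 0.0576 and 0.0818) and on the 6 arrays of 8 h alone (adjusted p = 0.202), and the 24 h call held without any 1 array.

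The lactate carrier slc16a3b had a level of -1.62, -0.57 and -1.17 on the control arrays of 24 h, of which 1 was above background, and of 0.54, 0.16 and 0.18 on exposed arrays. All exposed arrays were higher. The difference was 1.41 ± 0.44 (adjusted p = 0.0424) and 2.1 in Cy5 (adjusted p = 0.0365), and at 8, 48 and 96 h it was 0.09, 1.09 and 0.49 without a call. The call was lost without any array of 24 h but control array 2, up to an adjusted p of 0.163 without control array 1, and without any control array of 96 h (adjusted p = 0.0505 to 0.0518). It was also lost with plain subtraction, median centring, the authors' value table and the replicate block (adjusted p = 0.0911, 0.0623, 0.116 and 0.0586), and at 0.77 with no background correction, where the adjusted p was 0.099. Called on the mean only were the lactate carrier slc16a1b (0.32 ± 0.12, adjusted p = 0.0445) and the sulfate carrier slc13a1 (0.23 ± 0.08, adjusted p = 0.0384), lost without any 1 of 15 and of 14 arrays. The slc16a1b difference turned on Cy5 alone, to -0.23, and its call was lost without background correction (0.17, adjusted p = 0.111) and with the replicate block (adjusted p = 0.0557). The slc13a1 call was lost without background correction (0.14, adjusted p = 0.115), with median centring (adjusted p = 0.0629) and with the authors' value table (adjusted p = 0.0607). The bright members slc10a7 and slc22a2, an organic cation carrier, stood at -0.16 to 0.19 and -0.50 to 0.15 without a call.

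Of 12 carriers of metals or heme, 1 rose and 2 fell at 24 h, 1 rose and 1 fell at 48 h, and 0 were called at 8 or 96 h, against 10.8%, 8.65%, 0.973% and 12.9% of all probes in either direction at 24, 48, 8 and 96 h. On the mean of the 4 times 4 rose and 3 fell, against 17.7% and 13.8%. The fall was of slc11a2, which brings iron and other divalent metals across membranes, and the rise was of slc39a13, a zinc carrier of the secretory pathway. A second zinc carrier, slc39a7, which releases zinc from the endoplasmic reticulum, fell at 24 h.

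The level of slc11a2 at 24 h was 0.49, 0.55 and 0.32 on control and -0.05, -0.79 and -0.22 on exposed arrays, and at 48 h 0.50, 0.38 and 0.56 against -0.01, -0.32 and -0.18. At 8 h it was 0.33, 0.73 and 0.73 against -0.04, 0.03 and 0.09, and at 96 h 0.44, 0.46 and 0.61 against 0.14, -0.01 and 0.04. Every control array stood above every exposed array at each time. The differences were -0.57 ± 0.17 at 8 h (adjusted p = 0.114), -0.80 ± 0.17 at 24 h (adjusted p = 0.00374), -0.65 ± 0.17 at 48 h (adjusted p = 0.0199) and -0.44 ± 0.17 at 96 h (adjusted p = 0.0831), with -0.62 ± 0.08 on the mean (adjusted p = 1.17e-05). On Cy5 alone they were -0.43, -0.60, -0.68 and 0.14 and none passed, nor did their mean (-0.39, adjusted p = 0.0752). A second, dimmer slc11a2 probe gave -0.69, -0.29, -0.26 and 0.08 and was not called (adjusted p = 0.482 at 24 h and 0.534 at 48 h). The 24 h call held without any 1 array but not on the 6 arrays of 24 h alone (adjusted p = 0.0812). The 48 h call was lost without control array 1 or 3 or exposed array 2 (adjusted p = 0.0628, 0.0515 and 0.0745), without background correction (adjusted p = 0.0521), on the 6 arrays of its time (adjusted p = 0.058) and with the mean of both probes (-0.46, adjusted p = 0.06).

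The level of slc39a13 was -1.54, -1.62 and -1.87 on the control arrays of 24 h, of which 1 was above background, and 0.13, 0.20 and -0.39 on exposed ones. At 48 h it was -0.57, -1.69 and -0.58 against 1.62, -0.04 and 0.71. All exposed arrays were higher at both times. The differences were 1.66 ± 0.52 (adjusted p = 0.0431) and 1.71 ± 0.52 (adjusted p = 0.0438), with 0.27 and 0.63 at 8 and 96 h, without a call. In Cy5 the differences at 24 and 48 h were 2.3 and 2.23 and passed, and the reference was higher by 0.64 and 0.52. Both calls were near the threshold: each was lost without any 1 of 12 arrays, up to an adjusted p of 0.126 without exposed array 2 at 24 h and of 0.223 without exposed array 1 at 48 h, and also with median centring (adjusted p = 0.0529 and 0.0517), without background correction (0.83 and 1.19, adjusted p = 0.188 and 0.0544), with the authors' value table (adjusted p = 0.064 and 0.0927) and with replicate number as a block (adjusted p = 0.0558 and 0.0563). The 48 h call was lost with plain subtraction (adjusted p = 0.0828) and on the 6 arrays of 48 h (adjusted p = 0.0574) too.

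The level of slc39a7 at 24 h was 0.41, 0.38 and 0.53 on control and 0.03, -0.14 and -0.11 on exposed arrays, without overlap. The difference was -0.51 ± 0.16 (adjusted p = 0.0465), with -0.03, -0.35 and 0.00 at 8, 48 and 96 h. The call was lost without any 1 of 13 arrays, up to an adjusted p of 0.134 without exposed array 2 of 24 h, and on Cy5 alone (-0.45, adjusted p = 0.249), with the authors' value table (adjusted p = 0.125), with median centring (adjusted p = 0.0503), with array weights (adjusted p = 0.0609) and on the 6 arrays of 24 h (adjusted p = 0.11).

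On the mean of the 4 times slc40a1, the iron exporter ferroportin, was higher by 0.81 ± 0.18 (adjusted p = 0.00181), at 1.11, 1.1, 0.38 and 0.68 at 8, 24, 48 and 96 h. This difference lay in the reference channel, at -0.73 (adjusted p = 0.000587), and Cy5 differed by 0.08 (adjusted p = 0.769). Zinc carriers called on the mean only were slc30a9 (0.35 ± 0.10, adjusted p = 0.0151), slc39a6 (0.35 ± 0.13, adjusted p = 0.05, just under the threshold) and slc30a8 (-0.36 ± 0.12, adjusted p = 0.0267), best known from pancreatic islets. The slc30a9 difference turned to -0.17 on Cy5 alone. The slc39a6 call was lost without any 1 of 20 arrays and the slc30a8 call without any 1 of 6, the latter at up to 0.0544. The slc39a6 call was lost with median centring, the authors' value table and array weights (adjusted p = 0.0792, 0.068 and 0.0512), and the slc30a8 call with plain subtraction (adjusted p = 0.162). On the mean of the 4 times 5 of 5 exocrine pancreas markers were called lower as well, and their part in the slc30a8 value was not tested. The copper importer slc31a1, the brightest metal carrier, stood at 0.56, -0.14, -0.15 and 0.24 with a standard error of 0.39, without a call.

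Of 5 sugar carriers, 1 rose, at 48 h, when 5.29% of all probes did. This was slc2a5, a fructose carrier in mammals, with a level of -1.32, -1.31 and -0.86 on control and -0.68, 0.62 and 0.64 on exposed arrays of 48 h. The exposed arrays were all higher, 1 of them by little. The difference was 1.36 ± 0.37 (2.56-fold, adjusted p = 0.0265), against 0.71, 0.54 and 0.48 at 8, 24 and 96 h, and the mean was 0.77 ± 0.18 (adjusted p = 0.00303). In Cy5 it was 1.32, 1.21, 1.77 and 1.61 and passed at each time, while the reference was higher by 0.62, 0.67, 0.41 and 1.13. The 48 h call was lost without control array 1 or 2 or exposed array 2 or 3 (adjusted p = 0.0875, 0.0944, 0.101 and 0.0946), on the 6 arrays of 48 h (adjusted p = 0.0573) and with the authors' value table (adjusted p = 0.0578). The bright sugar carrier slc2a15a stood between -0.25 and 0.22.

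Of 13 carriers of inorganic ions, 1 rose and 1 fell at 24 h (6.61% and 4.23% of all probes) and 0 were called at another time. The rise was of slc12a7b, a potassium chloride cotransporter used in volume control. Its level was -0.87, -0.93 and -0.50 on control and 0.05, 0.60 and 1.18 on exposed arrays of 24 h, without overlap. The difference, 1.37 ± 0.30 (2.59-fold, adjusted p = 0.00534), lay in Cy5 (1.44, adjusted p = 0.00749; reference 0.06) and held without any 1 array. At 8, 48 and 96 h it was 0.50, 0.59 and 0.81, and on the mean 0.82 ± 0.15 (adjusted p = 0.000305). The sodium phosphate cotransporter slc34a2a had a level of 0.71, 0.56 and 0.48 on control and -0.36, -0.27 and -0.67 on exposed arrays of 24 h, of which 1 was above background. No exposed array reached a control. The difference was -1.01 ± 0.27 (adjusted p = 0.021), -1.25 in Cy5 (adjusted p = 0.0445), and was lost without control array 1 or 2 or exposed array 3 (adjusted p = 0.0723, 0.0591 and 0.0904) and with the authors' value table (adjusted p = 0.128). Its paralog slc34a2b stood between -0.21 and -0.01, and the phosphate carrier slc20a1b between -0.02 and 0.72, without a call. On Cy5 alone slc34a2b passed lower at 48 and 96 h (-0.84 and -0.81, adjusted p = 0.0405 and 0.0249). The reference was lower there too, at -0.67 and -0.60 (adjusted p = 0.225 and 0.123). On the mean of the 4 times both genes passed lower on Cy5 alone (-0.47 and -0.65, adjusted p = 0.00692 and 0.00819). A second, dimmer slc34a2b probe gave -0.21, 0.62, -0.12 and 0.54 at 8, 24, 48 and 96 h. That of slc20a1b gave 0.71, -0.24, 0.33 and 0.57, and neither was called. On the mean only, slc12a9 of the cation chloride cotransporter family was lower by -0.49 ± 0.13 (adjusted p = 0.008), and 0.23 higher on Cy5 alone; the call was also lost without background correction, at -0.05 (adjusted p = 0.714), and with the authors' value table, at -0.40 (adjusted p = 0.554).

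The 7 genes grouped with nucleosides and nucleotide sugars held 3 of the 4 transporter calls at 96 h, when 12.9% of all probes were called. All belong to the slc35 family, known for supplying nucleotide sugars to the endoplasmic reticulum and Golgi. They were placed here by family only, and the substrate of each was not checked. In human cells slc35f2 takes up the micronutrient queuosine. It was the only gene called at 3 times. At 96 h its level was -0.25, 0.07 and 0.19 on control, of which 2 were above background, and 0.94, 1.21 and 0.87 on exposed arrays. All exposed arrays were higher, by 1.00 ± 0.23 (2-fold, adjusted p = 0.00594), with 0.97 in Cy5 (adjusted p = 0.133) and -0.03 in the reference. At 24 and 48 h no control array was above background, so the fitted differences of 0.89 and 0.99 (adjusted p = 0.0143 and 0.00958) give a direction and no fold; at 8 h the difference was -0.03. The 96 h call held without any 1 array. The 24 h call was lost without control array 1 or exposed array 2 or 3 (adjusted p = 0.0809, 0.0586 and 0.0855) and on the 6 arrays of 24 h (adjusted p = 0.092), and the 48 h call without control or exposed array 1 (adjusted p = 0.0532 and 0.0721) and with plain subtraction (adjusted p = 0.0539). Both were lost without background correction (0.50 and 0.48, adjusted p = 0.257 and 0.258) and on Cy5 alone (adjusted p = 0.0601 and 0.0578), and all 3 with the authors' value table (adjusted p = 0.414, 0.382 and 0.348).

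At 96 h slc35e1 had a level of 0.38, 0.10 and -0.03 on control and 1.07, 1.23 and 1.34 on exposed arrays, and slc35h1 of 0.12, 0.09 and 0.44 against -0.59, -0.66 and -0.94. The first rose and the second fell with no overlap. For slc35e1 the difference was 1.06 ± 0.28 (adjusted p = 0.0144), of which 0.16 lay in Cy5 and -0.90 in the reference (adjusted p = 0.762 and 0.0755), and it was lost without control array 2 or 3 or exposed array 3 (adjusted p = 0.0545, 0.0596 and 0.0556). For slc35h1 it was -0.94 ± 0.24 (adjusted p = 0.0127), with -1.39 in Cy5 (adjusted p = 0.0062), lost without control or exposed array 3 (adjusted p = 0.0617 and 0.0611) and with the authors' value table (adjusted p = 0.129). A second slc35h1 probe gave 0.26 at 96 h (adjusted p = 0.553), opposite in sign, and -0.86 at 24 h (adjusted p = 0.0385), where the brighter probe gave -0.07; their mean was -0.34 at 96 h (adjusted p = 0.291). The brightest of the 7, slc35b4, stood between -0.04 and 0.56.

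No vitamin or lipid carrier of 5 was called at a single time, against 0.973%, 10.8%, 8.65% and 12.9% of all probes at 8, 24, 48 and 96 h. On the mean 2 were lower, against 13.8% of all probes: slc27a2a, which imports and activates fatty acids (-0.63 ± 0.19, adjusted p = 0.0127), and slc46a1, the proton-coupled folate carrier (-0.30 ± 0.10, adjusted p = 0.0245). The slc27a2a call was lost on Cy5 alone (-0.46, adjusted p = 0.083) and the slc46a1 call with the authors' value table (adjusted p = 0.0597). At an unadjusted limma p under 0.05, 0, 1, 0 and 0 of the 5 passed at 8, 24, 48 and 96 h. The share of all probes is not given here for these unadjusted counts. Of the unclassified genes, the urea carrier slc14a2 fell at 24 h, from 0.73, 0.88 and 0.48 on control to -0.31, -0.25 and -0.38 on exposed arrays. The groups were far apart, by -1.01 ± 0.25 (adjusted p = 0.0117), with -1.29 in Cy5 (adjusted p = 0.135). It stood at -0.61, -0.13 and -0.68 at 8, 48 and 96 h, and was lost without control array 2 of 24 h (adjusted p = 0.0577), without background correction (-0.50, adjusted p = 0.0544), with plain subtraction (adjusted p = 0.295) and with the authors' value table (adjusted p = 0.524). The others named here by brightness, slc49a4 and slc7a6os, stood at -0.36 to 0.63 and 0.13 to 0.34 without a call. In all, 54 genes were called neither at a time nor on the mean, with differences from -0.99 to 1.1 (8 h), -0.86 to 0.62 (24 h), -0.66 to 1.1 (48 h) and -0.78 to 0.71 (96 h). This count rests on the brightest probe of each gene. For slc43a1a, named outside the rule for its second probe, that dimmer probe was called lower on the mean (-0.54, adjusted p = 0.00759). The brighter slc43a1a probe gave 0.16.

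**Figure D3:**
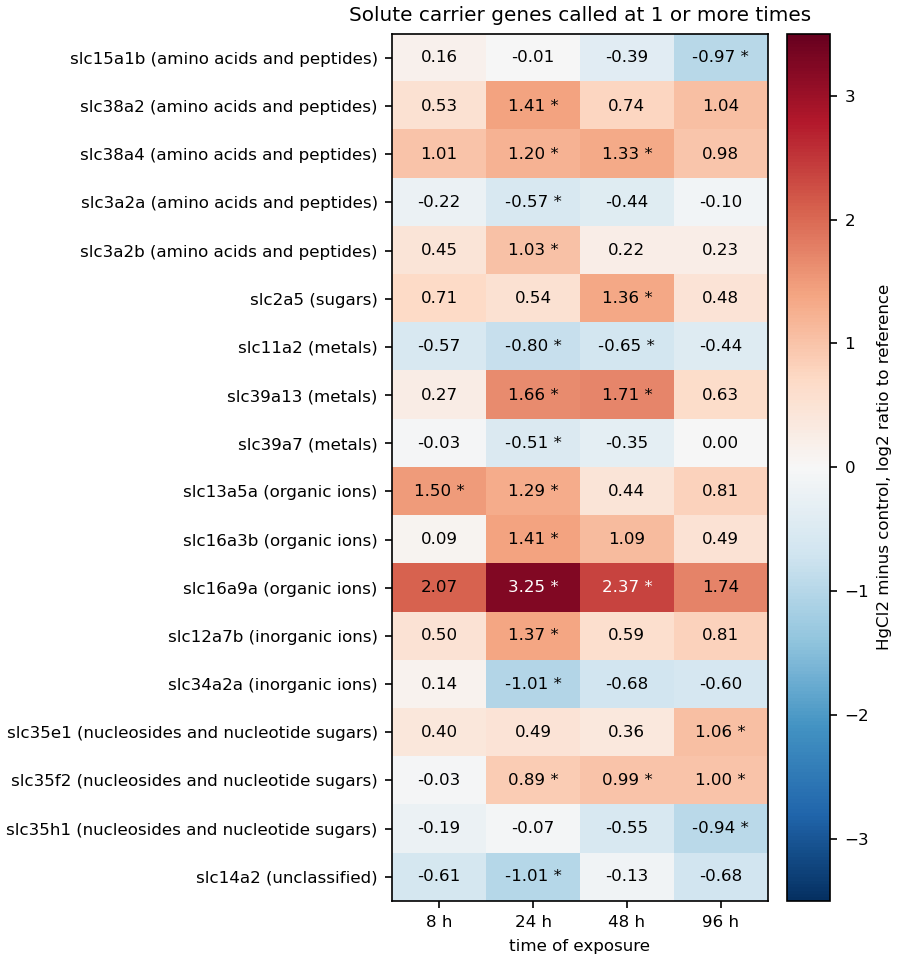
Difference between exposed and control livers (log2, numbers and colour) of the 18 solute carrier genes called at 1 or more times, in rows with their substrate group, by time of exposure; an asterisk marks a call at adjusted p under 0.05. Of the 25 marked cells, 14 are at 24 h, and slc16a9a holds the largest values, 3.25 and 2.37.

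Across the 25 calls at a single time, Cy5 differed in the same direction as the log ratio each time and passed on its own in 12. The log ratio contains Cy5 and the calls were chosen by it, so the shared direction is not a separate test. In 3 calls the larger part lay in the reference channel: slc13a5a at 8 h, slc15a1b at 96 h and slc35e1 at 96 h. The reference passed by itself in 1 of the 25, slc13a5a at 8 h. Without any 1 array 5 of the 25 calls held: slc16a9a, slc13a5a, slc12a7b and slc11a2 at 24 h and slc35f2 at 96 h. No call turned its sign. Of the 18 genes called at a time, 17 were also called on the mean of the 4 times, all but slc15a1b. Of these mean calls, slc14a2, slc16a3b, slc35f2 and slc3a2b were lost with the authors' value table (adjusted p = 0.0907, 0.0587, 0.0777 and 0.229). Lost on Cy5 alone were slc11a2, slc13a5a and slc3a2b. Plain subtraction lost slc14a2 (adjusted p = 0.337) and no background correction slc34a2a (adjusted p = 0.0626). That of slc39a7 was lost without any 1 of 16 arrays.

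**Figure D4:**
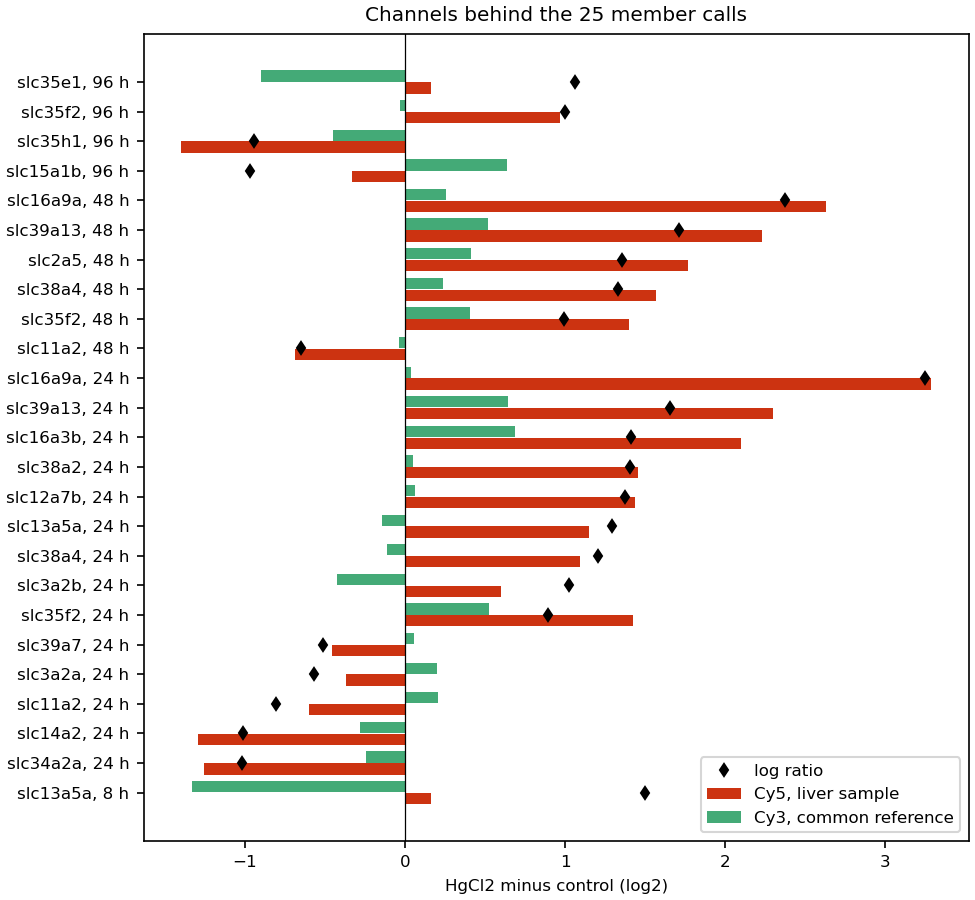
Difference between exposed and control livers (log2, x axis) in the Cy5 channel (red bars) and the Cy3 reference channel (green bars) for each of the 25 calls of a solute carrier gene at a time, with the difference of the log ratio as a black diamond. For slc16a9a the red bar reaches 3.29 and 2.63 with almost no green bar, and for slc13a5a at 8 h the green bar, at -1.33, is the longer.

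Other transport genes were set beside the solute carriers as lists, chosen with earlier results of these data known. The ABC transporters, pumps driven by ATP, rose in 1, 3, 2 and 1 of 9 genes at 8, 24, 48 and 96 h and fell in 1 at 96 h. For these lists too, the share of all probes called was 0.973%, 10.8%, 8.65% and 12.9% at the 4 times in either direction. ABC genes that rose included abca1a, the cholesterol exporter (1.75 at 24 h, adjusted p = 0.000765), abcb5 (0.98 at 24 h, adjusted p = 0.0202) and abcc4, an exporter of organic anions (1.23 at 24 h, adjusted p = 0.0205). Subunits of the sodium potassium ATPase, whose gradient drives many solute carriers, fell in 1, 1, 2 and 4 of 12 genes and rose in 1 at 24 h; atp1b3a fell by 2.21 (adjusted p = 0.00223) and atp1a3a by 0.83 (adjusted p = 0.00294) at 96 h, and atp1a1a.4 rose by 1.18 at 24 h (adjusted p = 0.0031). The list's median at 96 h was -0.39. Of 6 aquaporins, water and glycerol channels, 2 fell at each of 24, 48 and 96 h: aqp8a.1 (-1.55 at 96 h, adjusted p = 0.00038) and aqp12 (-0.92, adjusted p = 0.00489), the latter best known from exocrine pancreas. Markers of exocrine pancreas were called lower as well, and their part in the aqp12 value was not tested.

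Of genes that bind metals or control iron, 4 of 25 listed were measured, of which 0, 1, 2 and 3 rose and 0, 1, 1 and 0 fell at the 4 times. The genes cp and tfa are also among the hepatocyte markers, so these counts and those of the hepatocyte list share genes. This list and that of stress genes below were chosen with earlier results of these data known, so their counts are not a separate test. The share of all probes called in either direction was 0.973%, 10.8%, 8.65% and 12.9% at the 4 times. The ferroxidase cp rose at 24, 48 and 96 h by 1.93, 1.76 and 1.79 (adjusted p = 0.00272, 0.00698 and 0.0039), the iron carrier of blood tfa at 96 h (0.70, adjusted p = 0.0121), the ferritin heavy chain gene fth1a, named outside the rule after its values were seen, at 48 and 96 h (2.36 and 2.27, adjusted p = 0.0349 and 0.0313), and ireb2, an iron regulatory protein, fell at 24 and 48 h (-0.88 and -0.68, adjusted p = 0.00674 and 0.0376). Of the genes of amino acid and thiol stress, 5 of 18 listed were measured, and 1, 3, 3 and 3 rose at the 4 times. These were sgk1, a kinase that raises the activity of several carriers (2.61 at 24 h, adjusted p = 0.00129), chac1, a glutathione-degrading enzyme induced by amino acid stress (1.88 at 24 h, adjusted p = 0.00177), and gclm, the modifier subunit of the enzyme that starts glutathione synthesis (1.93 at 48 h, adjusted p = 0.00574).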

How the data were processed

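Liver RNA was measured on 24 two-colour glass arrays of spotted oligonucleotides, in 8 groups of 3. Groups and times follow the sample labels; the dose and the pooling of fish are those of the methods. Per the file headers, the deposited intensities are median spot and median local background readings, with no normalization. The authors' value table, as deposited, holds log2 ratios (mean signal less background, with 1 scaling constant an array) and was an alternative.

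In R 4.3.3 with limma 3.58.1, intensities were corrected by normexp with an offset of 50 and normalized by loess per array, with the 172 control spots at weight 0. The 16340 other probes were fitted as 8 group means with 16 residual degrees of freedom, and p values were adjusted by Benjamini-Hochberg over all of them. Per the probe gene table, an annotation of the platform, 5916 of these probes have 1 symbol, 75 have several and 10349 none. Of the 83 solute carrier genes, 82 have the same symbol in RefSeq GRCz12tu; the other, slc30a8, keeps the symbol of the probe gene table. The members, substrate groups and lists were chosen with earlier results of these data known. Genes are named where called at a time or on the mean of the 4 times, or where among the 2 brightest of a substrate group; genes of other lists where called, up to 3 per list. Channel values were taken after loess and Aquantile. In pairs of arrays with the same replicate number, deviations from the group means correlated at r between -0.03 and 0.19, over 0.1 in 1 of 12 pairs, so the numbers were not taken to pair arrays. With 3 arrays a group, the number of arrays limits the precision. On data simulated for 96 h over 16340 probes, 3, 30, 42 and 49 of 50 probes were recovered at log2 changes of 0.5, 1, 1.5 and 2, and 6 of 16140 unchanged probes were called. The simulation changed only these few probes, whereas 12.9% of all probes were called at 96 h in the measured data. Its noise was independent between probes and its reference did not differ with treatment. These are therefore not the recovery or error rates of the measured data. The alternatives were plain subtraction, no background correction, Aquantile, median centring, Cy5 alone, the authors' value table, leaving out dim probes, array weights, the mean of a gene's probes, a replicate block, the 6 arrays of a time, the methods' t-test and ANOVA, and leaving out each array. Figures were made with matplotlib 3.10.9 (Python 3.11.15). Gene sets, PCR and histology are not analysed here.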

Additional observations from a re-analysis of the deposited data

How the results depend on the processing

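Of the 25 calls of a solute carrier gene at a time, 25 held with Aquantile and without dim probes, 24 with array weights, 23 with the mean of a gene's probes, 22 with the replicate block, 20 with median centring or plain subtraction, 16 without background correction or on the 6 arrays of a time, 12 on Cy5 alone, 9 with the authors' value table and 1 with the methods' t-test after Benjamini-Hochberg. Of the 28 calls on the mean of the 4 times, 19 to 28 held. The sign of a call turned only on Cy5 alone, for slc12a9 (0.23), slc16a1b (-0.23) and slc30a9 (-0.17). Of 2066 values of uncalled results under the alternatives, 61 passed the threshold and 76 turned sign. Both held for 3 of them, all on Cy5 alone (slc15a1b -1.29 at 8 h, and slc10a7 -0.67 and slc20a1b -0.65 on the mean). The causes were not tested.

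Counts that moved were as follows. At 24 and 48 h, 9 and 3 genes were called without background correction (3 higher and 0 lower at 48 h). At 8 h, median centring called 2 (1 higher, 1 lower), array weights 2 and the mean of all probes 2. Cy5 alone called 18, 11 and 18 at 8, 48 and 96 h (8, 6 and 8 higher), 2 and 21 for a change of the effect from 8 to 48 and to 96 h, 43 over the 8 groups and 17 among controls. The value table called 3, 4 and 2 at 8, 24 and 48 h (2, 3 and 1 higher). Array weights called 12 at 96 h, 3 for a change from 8 to 96 h and 24 over the groups. The 6 arrays of a time called 0, 9, 3 and 9. The methods' t-test called 6, 17, 17 and 23 unadjusted, against 9.89%, 18.9%, 19.2% and 25.5% of all probes. After adjustment it called 0, 0, 0 and 1, against 1, 12, 2 and 706 of all probes, and the ANOVA called 8. For the other alternatives the share of all probes is not given here, so their counts are not set against the array-wide rate. Without 1 array, the counts ran from 0 to 2 at 8 h, 6 to 19 at 24 h, 1 to 8 at 48 h, 2 to 7 at 96 h, 22 to 29 on the mean and 10 to 22 over the groups, and stayed at 0 for changes between times and among controls.

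With the replicate number as a block, 1, 12, 5 and 5 genes were called at the 4 times, 27 on the mean, 14 over the groups, 0 for changes between times and among controls, and 25 in the reference channel at any time (28 without it). The numbers do not pair the samples by the labels. A slide or scan block was not run, since the files name neither, and the t-test, the ANOVA and the 6 arrays of a time give no value for the other comparisons. Dim signals, 3 arrays a group and a reference channel that differed with treatment limit all of these values.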
